A study of Homo sapiens with 12 samples.

Results

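The genes described here control the G1 phase of the cell cycle. They were taken by gene symbol as 10 of the 20030 rows of an mRNA-seq table, and all 10 symbols were present once. They are the D-type cyclin genes CCND1, CCND2 and CCND3, the kinase gene CDK6, the inhibitor genes CDKN1B, CDKN2A, CDKN2B, CDKN2C and CDKN2D, and MTAP, which lies beside CDKN2A and CDKN2B on chromosome 9. The table holds 12 libraries, 3 in each of 4 groups. Both cell lines used, MOLM-13 and THP-1, derive from human acute myeloid leukemia (AML) and carry a rearranged MLL gene. MOLM-13 cells also carry an internal tandem duplication of FLT3 (FLT3/ITD), while THP-1 cells have wild-type FLT3. Cells were incubated for 48 h with Jiyuan oridonin A (JOA), an ent-kaurene diterpenoid from the plant Isodon rubescens, at 0.5 μM in MOLM-13 and 2 μM in THP-1 cells. Control cells received the solvent DMSO. Each line was given its own dose, so line and dose cannot be told apart, and each line is a single culture line rather than a panel of donors. The labels do not say that replicates came from separate cultures, so the p-values measure only the spread between these libraries, which may be technical.

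During G1, D-type cyclins bind and activate the kinases CDK4 and CDK6, which phosphorylate the retinoblastoma protein RB1 and its relatives and so free E2F factors to switch on genes of S phase. The INK4 inhibitors, encoded by CDKN2A (p16), CDKN2B (p15), CDKN2C (p18) and CDKN2D (p19), bind CDK4 and CDK6 and keep cyclin D away. CDKN2A also encodes ARF, a protein that stabilizes p53, from another reading frame. The CIP/KIP inhibitors, CDKN1B (p27) among them, act mainly on complexes of CDK2. MTAP recycles methylthioadenosine, a by-product of polyamine synthesis, and is often lost together with CDKN2A and CDKN2B in tumour cells.

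The promoters of 4 of the genes are shown because the results turn on them: MTAP separated the lines, CDKN2D had the largest estimate after JOA, and CDKN2A and CDKN2B were listed at 0 in all libraries. The sequences are RefSeq's, on GRCh38.p14, and were cut to the stretch before the start site that holds no annotated exon. Of the 10 genes, 8 had such a window. RefSeq gives CDKN2A a pair of starts, and the stretch shown lies before the more upstream one, because nearly all of the window of the other start is annotated exon. Capitals mark GGGCGG or its reverse complement CCGCCC, the core letters of the box bound by the factor SP1. MTAP lies at chr9:21802386-21802542 on the plus strand, CDKN2A at chr9:21995325-21995481, CDKN2B at chr9:22009364-22009555 and CDKN2D at chr19:10569060-10569229, and these last 3 are read on the minus strand. The MTAP, CDKN2B and CDKN2D stretches end right at the annotated gene. Those of CDKN2A and CDKN2B lie inside the span of the antisense gene CDKN2B-AS1 (21994778 to 22121097).
MTAP: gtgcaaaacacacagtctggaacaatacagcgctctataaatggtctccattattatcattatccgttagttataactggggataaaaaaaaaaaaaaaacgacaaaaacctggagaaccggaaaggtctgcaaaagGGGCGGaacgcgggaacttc
CDKN2A: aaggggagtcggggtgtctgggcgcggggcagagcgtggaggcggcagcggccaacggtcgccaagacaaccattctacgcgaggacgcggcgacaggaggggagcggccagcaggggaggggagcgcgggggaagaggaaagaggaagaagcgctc
CDKN2B: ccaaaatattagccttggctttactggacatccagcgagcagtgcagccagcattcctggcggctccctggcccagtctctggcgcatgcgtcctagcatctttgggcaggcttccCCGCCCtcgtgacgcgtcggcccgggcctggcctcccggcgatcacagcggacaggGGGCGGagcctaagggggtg
CDKN2D: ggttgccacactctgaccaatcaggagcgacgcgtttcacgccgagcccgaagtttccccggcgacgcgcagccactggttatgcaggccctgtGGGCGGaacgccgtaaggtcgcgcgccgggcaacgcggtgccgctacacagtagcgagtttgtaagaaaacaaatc
The printed stretches hold 1 such match for MTAP, 0 for CDKN2A, 2 for CDKN2B and 1 for CDKN2D. Over the whole 250 bases before the start there were 2 matches for MTAP, 0 for the upstream and 1 for the downstream start of CDKN2A, 2 for CDKN2B and 2 for CDKN2D, and 42.6% of all 35116 RefSeq promoter windows of that length held the motif on either strand. Those 250 bases held 11 CpG dinucleotides for MTAP, 24 and 20 for the upstream and downstream starts of CDKN2A, 18 for CDKN2B and 33 for CDKN2D, against a median of 11 over all windows. The E2F motifs TTTCGCGC and TTTGGCGC, searched on both strands, had 0 matches in the 250 bases of these 4 genes and were present in 0.439% and 0.55% of all windows. These matches are letters only, and no binding was measured.

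Values are FPKM, in which the fragments of a gene are divided by its exon length and by the mapped total of the library, so levels of different genes can be set side by side per length. Within a line, any 2 libraries correlated at 0.988 to 0.997 over genes on the log2 scale. Sums over all genes ran from 291127 to 325023 FPKM. FPKM keeps no total depth. Relative depth, read from the commonest ratio between values under 0.1 FPKM, ran from 0.867 to 1.06 of the first control library of each line, an approximate figure. All 13 markers of myelomonocytic cells were above 0 in each group. Of 9 markers of other cell types, 4 were at 0 in control MOLM-13 libraries, namely HBB, EPCAM, KRT5 and MS4A1. The T cell gene CD3D was the exception, with 1.53 to 3.79 FPKM in control MOLM-13 libraries and 0 in the 6 THP-1 libraries. The summed level of those 9 markers was 1.73 to 3.95 FPKM in MOLM-13 controls, 2.21 to 2.45 after JOA, 0.258 to 1.29 in THP-1 controls and 0.261 to 0.512 after JOA. Their part in the differences between lines was not tested.

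**Figure D1:**
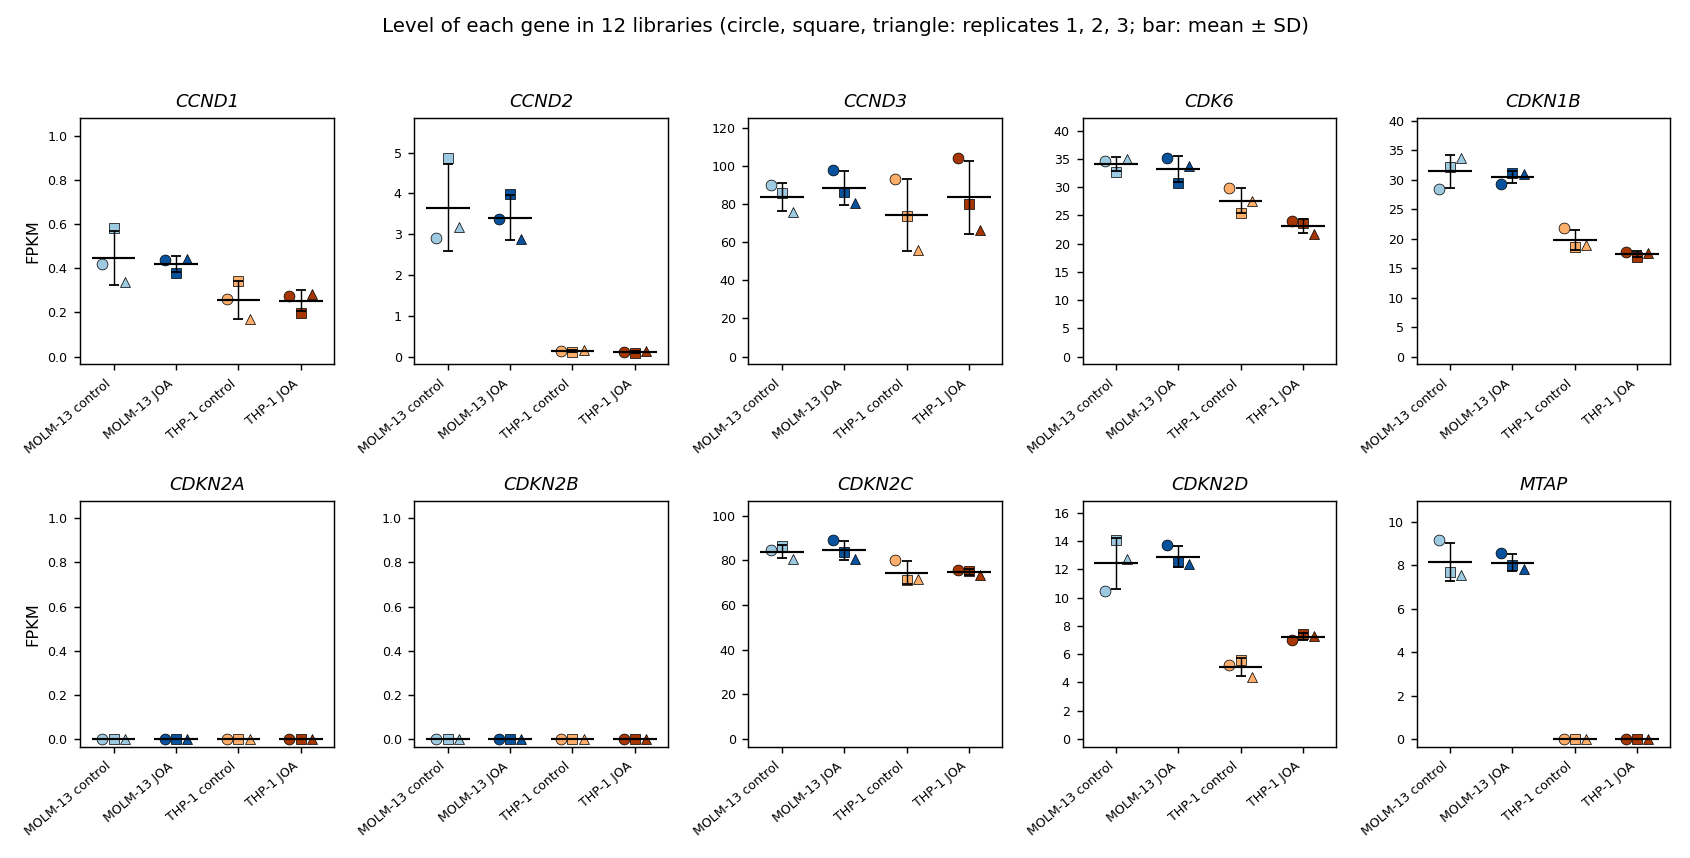
Level in FPKM (y axis, linear, from 0) of each of the 10 genes in the 4 groups (x axis), with 1 point per library and the mean ± SD over 3 libraries as bars. MTAP and CCND2 were higher in MOLM-13 than in THP-1 libraries, where they were near 0. CDKN2A and CDKN2B were at 0 in all 12, and the THP-1 JOA libraries of CDKN2D all lay above their controls.

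CCND3 supplied nearly all of the cyclin D message in both lines. Its levels were 90.05, 86.0 and 75.8 FPKM in the 3 MOLM-13 controls and 98.2, 86.4 and 80.5 FPKM after JOA. In THP-1 they were 93.3, 74.1 and 55.9 FPKM in controls and 104.5, 80.0 and 66.4 FPKM after JOA. The groups overlapped in both lines, although each JOA library lay above the control of the same replicate number in 3 of 3 pairs of either line. CCND3 was 95.4% ± 1.27 (SD, n = 3) of the summed cyclin D FPKM in MOLM-13 controls and 99.5% ± 0.115 (SD, n = 3) in THP-1 controls.

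CCND2, another of the D-type cyclin genes, separated the lines. MOLM-13 controls held 2.89, 4.87 and 3.18 FPKM, and their JOA libraries held 3.36, 3.98 and 2.88 FPKM. THP-1 controls held 0.129, 0.101 and 0.159 FPKM, and their JOA libraries held 0.123, 0.0928 and 0.134 FPKM. Every MOLM-13 library was above every THP-1 library, and within each line control and JOA overlapped. CCND1, the cyclin D of many epithelial tumours, was low throughout, with 0.42, 0.58 and 0.339 FPKM in MOLM-13 controls and 0.435, 0.377 and 0.442 FPKM after JOA. In THP-1 it was 0.259, 0.341 and 0.171 FPKM in controls and 0.275, 0.198 and 0.284 FPKM after JOA. The CCND1 ranges of the control groups touched, since the highest THP-1 control exceeded the lowest MOLM-13 control.

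CDK6, the kinase partner of cyclin D that is prominent in blood cells, was abundant. Its levels were 34.6, 32.7 and 35.0 FPKM in MOLM-13 controls and 35.2, 30.7 and 33.7 FPKM after JOA, with overlapping groups. In THP-1 the controls held 29.9, 25.5 and 27.5 FPKM and the JOA libraries 24.1, 23.6 and 21.7 FPKM. All 3 THP-1 JOA libraries lay below all 3 controls. 

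CDKN1B, the p27 gene, was higher in MOLM-13 than in THP-1 cells. MOLM-13 held 28.4, 32.2 and 33.8 FPKM in controls and 29.3, 31.1 and 30.9 FPKM after JOA. THP-1 held 21.8, 18.6 and 19.0 FPKM in controls and 17.8, 16.9 and 17.6 FPKM after JOA. The MOLM-13 groups overlapped, and the THP-1 JOA libraries lay below their controls.

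Among the INK4 genes, CDKN2C carried most of the message. MOLM-13 libraries held 84.7, 86.3 and 80.8 FPKM in controls and 89.0, 83.6 and 80.8 FPKM after JOA. THP-1 libraries held 80.4, 71.1 and 71.9 FPKM in controls and 75.9, 75.4 and 73.5 FPKM after JOA. The treatment groups overlapped in both lines. Its level was close to that of CCND3 in every group, and the ranges of these 2 genes overlapped in each.

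CDKN2D was the INK4 gene that stood apart after JOA in THP-1 cells. THP-1 controls held 5.22, 5.61 and 4.38 FPKM, and THP-1 JOA libraries held 6.97, 7.43 and 7.31 FPKM, so that the groups did not overlap. MOLM-13 controls held 10.5, 14.0 and 12.7 FPKM and MOLM-13 JOA libraries 13.7, 12.5 and 12.4 FPKM, which overlapped. CDKN2D was 6.38% ± 0.824 of the summed INK4 FPKM in THP-1 controls and 8.81% ± 0.345 after JOA (SD, n = 3 each). The same share was 12.9% ± 1.63 and 13.2% ± 0.208 in MOLM-13 (SD, n = 3 each).

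CDKN2A and CDKN2B were listed at 0 in all 12 libraries, as were 3488 of the 20030 rows. No fold or test can be given for them, and depth being unknown, no upper limit either. Of 115 genes for ribosomal proteins and proteasome subunits, which cells use in general, 2 were at 0 in all libraries, and both of these, PSMA8 and PSMB11, are known for expression restricted to testis or thymus. Gene-level FPKM cannot separate the p16 and ARF transcripts of CDKN2A, and the near-identical stretches that CDKN2A and CDKN2B share make reads there uncertain.

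MTAP split the lines completely. MOLM-13 controls held 9.15, 7.71 and 7.57 FPKM and MOLM-13 JOA libraries 8.57, 8.005 and 7.82 FPKM. In THP-1 it was listed at 0 in 5 of 6 libraries and at 0.00939 FPKM in control replicate 3. MTAP, CDKN2A and CDKN2B were thus all listed at 0 in 5 of 6 THP-1 libraries, whereas of these neighbours MOLM-13 libraries had CDKN2A and CDKN2B at 0.

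CCND3 and CDKN2C held the highest levels in each group, followed by CDK6, CDKN1B and CDKN2D. In MOLM-13 controls CCND3 (83.9 ± 7.35 FPKM) and CDKN2C (83.9 ± 2.82) came first, then CDK6 (34.1 ± 1.22), CDKN1B (31.5 ± 2.76), CDKN2D (12.4 ± 1.80), MTAP (8.14 ± 0.877), CCND2 (3.65 ± 1.07) and CCND1 (0.446 ± 0.123; SD, n = 3). The neighbours CCND3 and CDKN2C, and CDK6 and CDKN1B, overlapped. In THP-1 controls the order was CDKN2C (74.5 ± 5.16 FPKM), CCND3 (74.4 ± 18.7), CDK6 (27.6 ± 2.20), CDKN1B (19.8 ± 1.75), CDKN2D (5.07 ± 0.628), CCND1 (0.257 ± 0.0852) and CCND2 (0.1297 ± 0.029; SD, n = 3). Only CDKN2C and CCND3 overlapped among neighbours above 0.1 FPKM there. CCND2 was above CCND1 in MOLM-13 and below it in THP-1 controls.

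The genes around CDKN2A on chromosome 9 were then read in order to see where the difference in MTAP began and ended. The stretch from 18000000 to 28000000 (GENCODE positions, GRCh38) was chosen after the values had been seen. It holds 44 genes of the table, of which 21 were at 0 in all 12 libraries, many of them interferon genes, and 15 were above 0 in every library. HACD4, a fatty acid enzyme gene at 20999515 to 21031636, was expressed in both lines, with a mean over 6 libraries of 3.69 FPKM in MOLM-13 and 4.26 FPKM in THP-1. KLHL9, an adaptor gene of a ubiquitin ligase at 21329671 to 21335380, was at 3.69 to 4.23 FPKM in MOLM-13, at 0 in 5 THP-1 libraries and at 0.00936 FPKM in control replicate 3. MTAP follows at 21802543 to 21937651, CDKN2A at 21967753 to 21995301 and CDKN2B at 22002903 to 22009363.

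The next genes beyond CDKN2B with any value were higher in THP-1. DMRTA1, at 22446841 to 22455740, was at 0 in the 6 MOLM-13 libraries and above 0 in the 6 THP-1 libraries, with a mean of 0.269 FPKM. ELAVL2, at 23690104 to 23826337, was likewise at 0 in MOLM-13 and had a mean of 0.138 FPKM in THP-1. TUSC1, at 25676389 to 25678440, was on in both lines, at 0.513 FPKM in MOLM-13 and 7.75 FPKM in THP-1 (means over 6 libraries). Farther on, levels were lower in THP-1 again, with means over 6 libraries of 12.6 FPKM in MOLM-13 and 7.71 FPKM in THP-1 for CAAP1, 9.43 and 7.21 for PLAA, 1.67 and 0.743 for IFT74, 0.387 and 0.031 for MOB3B, and 2.62 and 0.655 for C9orf72. KLHL9 and MTAP were thus the genes of this stretch at 1 FPKM or more in every MOLM-13 library and at 0 in 5 of 6 THP-1 libraries. IFNB1 and EQTN, at 0 in all THP-1 libraries, were above 0 in 2 and 1 of the 6 MOLM-13 libraries, at no more than 0.148 and 0.025 FPKM. RNA levels do not measure copy number, and it was not tested whether DNA is absent. The noncoding genes of the locus were not analysed here.

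Of 9395 genes at 1 FPKM or more in every MOLM-13 library, 5 (0.0532%) were at 0 in at least 5 THP-1 libraries, namely ALOX12, CD3D, KLHL9, MTAP and NFE4. In the other direction the count was 32 of 9708 (0.33%). These counts rest on exact zeros. With every library of the other line under 0.1 FPKM as the limit, they were 24 of 9395 (0.255%), MTAP and KLHL9 among them, and 200 of 9708 (2.06%).

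**Figure D2:**
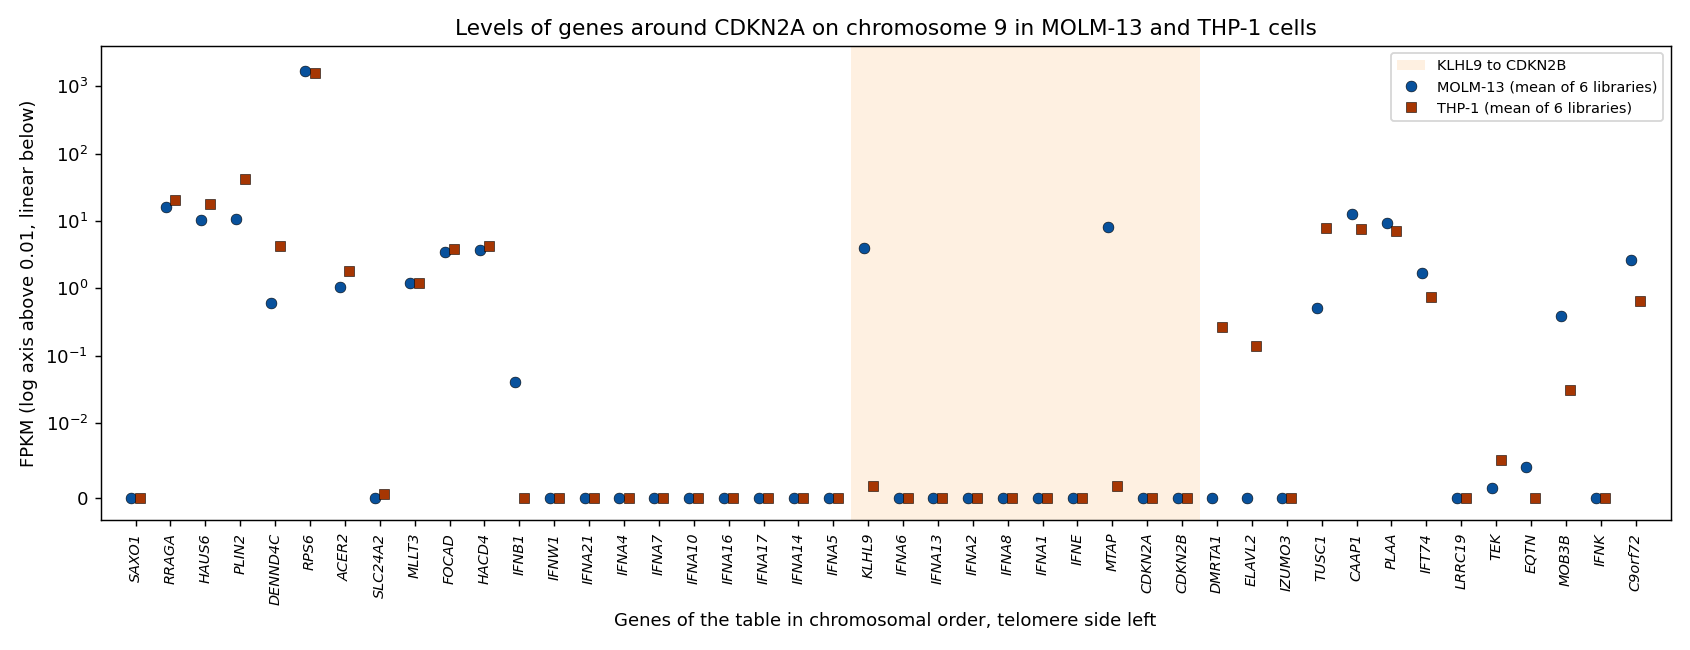
Mean FPKM over 6 libraries (y axis, log above 0.01 and linear below) of the 44 genes of the table around CDKN2A, in chromosomal order (x axis), for MOLM-13 (circles) and THP-1 (squares). Within the shaded stretch from KLHL9 to CDKN2B, KLHL9 and MTAP were at 3.95 and 8.14 FPKM in MOLM-13 and near 0 in THP-1. HACD4 before it and CAAP1 and PLAA farther on after it were expressed in both lines. Between CDKN2B and CAAP1, the genes DMRTA1, ELAVL2 and TUSC1 were higher in THP-1.

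The first comparison asked how the control cells of both lines differ in these genes. Values were tested with limma as log2(FPKM + 0.1), leaving out genes whose mean was under 0.1 FPKM, and a gene was called when its Benjamini-Hochberg adjusted p was below 0.05 and its log2 change was at least 0.58 in size. Differences on this scale understate the change of low genes. Of the 10 genes, 8 passed the filter, and 5 of these were called, all lower in THP-1. MTAP is 1 of the 5, and it passed the filter only through MOLM-13, so its call was bound to follow and adds nothing to the count. Over all 12635 genes tested, 44% were called, 25% higher and 19% lower in THP-1. The median log2 difference was -0.64 for the 8 genes, MTAP included, and 0.06 for all genes tested.

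CCND2 was lower in THP-1 by a log2 difference of -4.00 (SE 0.21, adjusted p 9.31e-07, limma), a ratio of means of 0.0356. CDKN2D was lower by -1.27 (SE 0.13, adjusted p 4.26e-05, limma), a ratio of 0.408. CDKN1B was lower by -0.67 (SE 0.09, adjusted p 0.000206, limma), a ratio of 0.629. All 3 THP-1 controls were below all 3 MOLM-13 controls for each of them. MTAP was called as well (adjusted p 3.44e-08, limma), but its fitted difference of -6.32 depends on the pseudocount and is no measure of its fold.

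CCND1 was called with the least margin, at -0.62 (SE 0.24, adjusted p 0.0442, limma). Its call was lost without MOLM-13 control replicate 1 (adjusted p 0.077) or 2 (0.15) and without THP-1 control replicate 1 (0.0789) or 3 (0.134), and adjusted p ran from 0.0122 to 0.15 over all alternatives in limma. CDK6 (-0.30, SE 0.07, adjusted p 0.00487, limma) and CDKN2C (-0.17, SE 0.07, adjusted p 0.0432, limma) were below the fold threshold. CCND3 differed by -0.20, with a 95% interval of -0.59 to 0.18 and an adjusted p of 0.305 in limma, so no difference passed. That estimate rests on single libraries: it was -0.38 without THP-1 control replicate 1 (adjusted p 0.0361, limma) and -0.01 without THP-1 control replicate 3 (adjusted p 0.943, limma), and it stayed under the fold threshold in each such fit. The control groups did not overlap for 6 of the 8 genes, all lower in THP-1, against 74.8% of all genes tested in either direction and 34.1% lower (40.7% higher). At an unadjusted p below 0.05 there were 7 of the 8, against 73.3% of all genes. MTAP is in both counts and adds nothing to either, since it passed the filter only through MOLM-13. Between the JOA libraries of both lines CCND2 differed by -4.01, CDKN2D by -0.82 and CDKN1B by -0.80 on the log2 scale (adjusted p 1.91e-07, 8.42e-06 and 2.8e-06, limma).

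The second comparison asked what JOA did to these genes in MOLM-13 cells. None of the 8 genes tested was called, and their log2 fold changes ran from -0.07 to 0.07, each with an adjusted p of 1 in limma. Over all 11693 genes tested, 0% were called, and 4.11% had an unadjusted p below 0.05, against 0 of the 8. With same-numbered libraries as blocks 0% were called too. The groups did not overlap for 9.65% of all genes (5.1% higher, 4.55% lower) and for 0 of the 8. The median log2 fold change was -0.02 for the 8 genes and 0.01 for all genes tested. The 95% intervals, from the fit without blocks, reflect only the spread between these libraries. On the log2 scale they were -0.13 to 0.15 for CDKN2C, -0.20 to 0.12 for CDK6, -0.22 to 0.13 for CDKN1B, -0.14 to 0.29 for CCND3 and -0.18 to 0.31 for CDKN2D. They were wider for the low genes, at -0.52 to 0.37 for CCND2 and -0.51 to 0.40 for CCND1.

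The third comparison asked the same of THP-1 cells. Here 7 of the 10 genes passed the filter, MTAP, CDKN2A and CDKN2B being at or near 0, and 0 were called, against 0.134% of 12712 genes tested, 0.0551% higher and 0.0787% lower (1.27% with the replicate block). At an unadjusted p below 0.05 there were 3 of the 7, against 16.9% of all genes. Groups did not overlap for 3 of the 7, 1 higher and 2 lower, against 23.4% of all genes, 14.6% higher and 8.81% lower. The median log2 fold change was -0.001 for the 7 genes and 0.02 for all genes tested. With 3 libraries against 3, the exact permutation test of a single gene cannot go below p = 0.1.

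CDKN2D had the largest estimate, 0.51 (SE 0.09, 95% interval 0.29 to 0.73, adjusted p 0.0755, limma), and JOA libraries were higher in 3 of 3 pairs. The ratio of means was 1.43. With the replicate block its adjusted p was 0.0162 in limma, at the same estimate, which stays under the fold threshold. CDK6 had -0.26 (SE 0.07, adjusted p 0.136, limma), lower in 3 of 3 pairs, with an adjusted p of 0.0362 under the block. CDKN1B had -0.18 (SE 0.07, adjusted p 0.255, limma), lower in 3 of 3 pairs, with 0.0811 under the block and an estimate of -0.10 without THP-1 control replicate 1. CCND3 had 0.17 (SE 0.21, adjusted p 0.72, limma), and the block narrowed its SE to 0.04 with an adjusted p of 0.0506. CDKN2C (0.01), CCND2 (-0.08) and CCND1 (-0.001) had estimates near 0 on the log2 scale, the last 2 with intervals reaching -0.57 and 0.53.

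Beside these values, KIT, a receptor gene of immature blood cells, was the marker called in THP-1 among the 13 myelomonocytic markers (3 of 13 with the replicate block). Of the 13, 5 had a positive and 8 a negative log2 fold change, and the groups did not overlap for 3 in each direction. Over all genes tested in THP-1, 0.134% were called (1.27% with the replicate block). Groups did not overlap for 23.4% of all genes, 14.6% higher and 8.81% lower. KIT levels were 1.93, 1.61 and 1.21 FPKM in controls and 0.445, 0.623 and 0.489 FPKM after JOA. Its log2 fold change was -1.43 (adjusted p 0.0394, limma). The call was lost in all 6 fits without a library (adjusted p 0.0597 to 0.217, limma), without the filter and without the trend. Other markers that were not called include ITGAM (CD11b), at 3.94 ± 0.982 FPKM in controls and 6.39 ± 0.419 FPKM after JOA, CD33, at 5.78 ± 0.347 and 7.09 ± 0.733, and CSF1R, at 17.6 ± 2.36 and 16.6 ± 1.47 (SD, n = 3 each). SPI1, also not called, was higher without overlap, as were ITGAM and CD33, at 39.94 ± 1.898 and 44.85 ± 4.301 FPKM. FLT3, at 15.69 ± 2.305 and 11.6 ± 1.24, and CD4, at 43.71 ± 1.666 and 37.24 ± 2.495, were lower without overlap and not called (SD, n = 3 each). In MOLM-13 after JOA 0 of 12 markers tested were called, with 9 positive and 3 negative log2 fold changes. Groups did not overlap for 2 of them, both higher, against 9.65% of all genes (5.1% higher, 4.55% lower). These were ITGAM, at 2.87 ± 0.526 and 3.78 ± 0.371 FPKM, and CD33, at 21.4 ± 0.727 and 23.6 ± 0.381 FPKM (control and JOA, SD, n = 3 each). The part of these markers in the values of CDKN2D, CDK6 and CDKN1B was not tested. In bulk RNA, fewer cells in a state and less RNA per cell cannot be told apart.

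**Figure D3:**
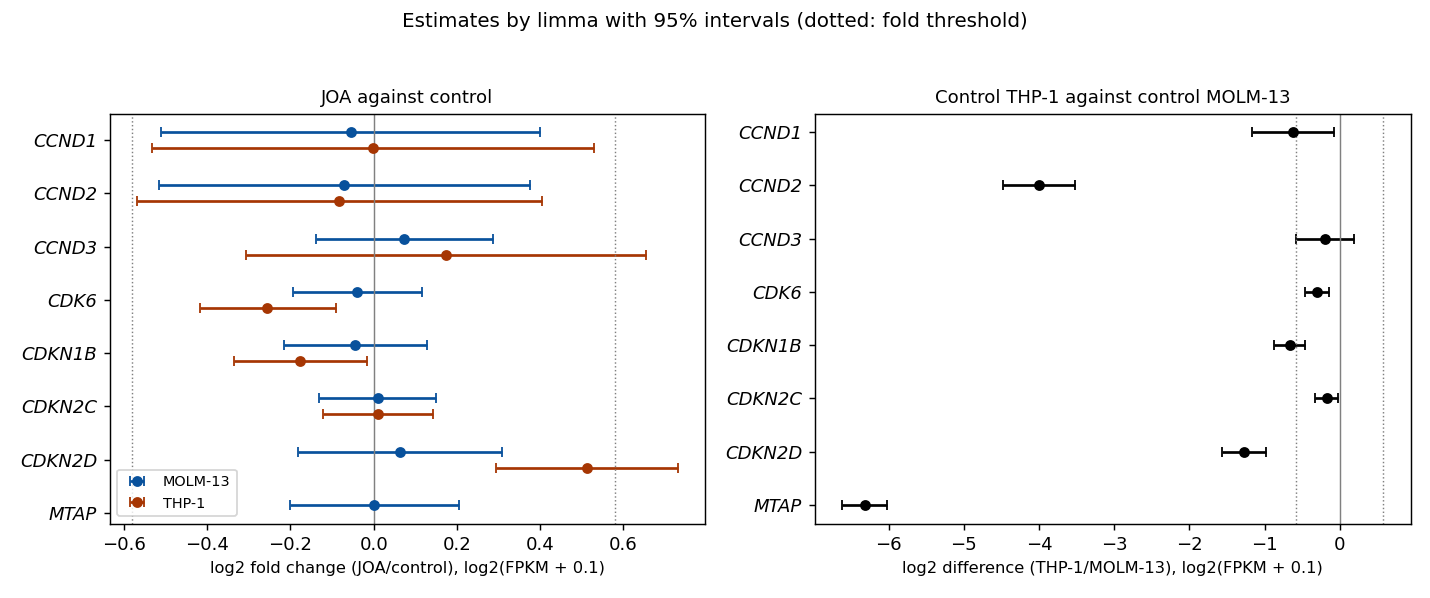
Left, log2 fold change of JOA over control in MOLM-13 and THP-1 cells. Right, log2 difference of control THP-1 from control MOLM-13 cells, both on log2(FPKM + 0.1) (x axes) for each gene tested (y axis), with 95% intervals from limma and dotted lines at a log2 change of 0.58 either way. The THP-1 interval of CDKN2D runs from 0.29 to 0.73, that of CDK6 lies below 0, and the MOLM-13 intervals of all 8 genes span 0.

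Whether JOA acted differently in the lines was tested by the interaction of line and treatment, in which 0% of 12626 genes passed (0.0475% with the replicate block). At an unadjusted p below 0.05 there was 1 of 8 G1 genes, against 7.24% of all genes. CDKN2D had an interaction of 0.45 on the log2 scale (SE 0.15, p 0.0125, adjusted p 0.545, limma) and CDK6 one of -0.22 (p 0.0509, adjusted p 0.693, limma). A difference in response between the lines was thus not shown for either gene, and the doses differed as well.

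The other genes of this pathway were given by a list of 26, from the kinases CDK4 and CDK2 to the retinoblastoma and E2F families. In MOLM-13 JOA cells 0 of 25 tested were called, against 0% of all genes, with a median log2 fold change of -0.03. Of the 25, 6 had a positive and 19 a negative log2 fold change. Groups did not overlap for 1 gene higher and 5 lower, against 5.1% and 4.55% of all genes. The genes with the largest changes among those whose groups did not overlap were CDKN1A, the p21 gene, and E2F2. CDKN1A was 100.2, 101 and 98.8 FPKM in MOLM-13 controls and 124, 116 and 117 FPKM after JOA (log2 fold change 0.25, adjusted p 1, limma). E2F2 was 4.12 ± 0.382 FPKM in controls and 3.62 ± 0.0371 FPKM after JOA (SD, n = 3; -0.18, adjusted p 1, limma).

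In THP-1 JOA cells 0 of 26 were called, against 0.134% of all genes, with a median of -0.01. Of the 26, 12 had a positive and 14 a negative log2 fold change. Groups did not overlap for 2 genes higher and 4 lower, against 14.6% and 8.81% of all genes. E2F5, a repressive E2F factor, was 1.79, 1.695 and 1.55 FPKM in controls and 1.08, 1.43 and 1.03 FPKM after JOA (-0.48, adjusted p 0.144 and 0.0482 with the block, limma). CDKN1A was 26.5, 25.9 and 25.4 FPKM in controls and 22.7, 22.8 and 23.3 FPKM after JOA (-0.18, adjusted p 0.115, limma). CDKN1A libraries thus lay above their controls after JOA in MOLM-13 and below them in THP-1, and the interaction, -0.42, had an adjusted p of 0.194 in limma.

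Between the control lines 13 of the 26 were called, 8 higher and 5 lower in THP-1, near the share over all genes (44%, 25% higher and 19% lower). CDKN1A (-1.95), the growth regulator MYC (-1.60) and the retinoblastoma relative RBL2 (-0.88) had the largest log2 differences downward, with adjusted p of 4.82e-08, 3.07e-06 and 2.99e-05 in limma. Upward these were the p57 gene CDKN1C (1.81), the phosphatase gene CDC25A (1.65) and E2F1 (1.21), with adjusted p of 0.00312, 2.4e-05 and 4.69e-06 in limma. The value of CDKN1C depends on the pseudocount, since its mean was 0.0692 FPKM in MOLM-13 and 0.463 FPKM in THP-1 controls. With a pseudocount of 1 its log2 difference was 0.45 and not called. CDKN1C passed the filter only through THP-1, where it is high, so its call adds nothing to the count of 13. CDK4, the other cyclin D kinase, was called higher in THP-1 (0.69, adjusted p 6.11e-05, limma), where CDK6 was lower.

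**Figure D4:**
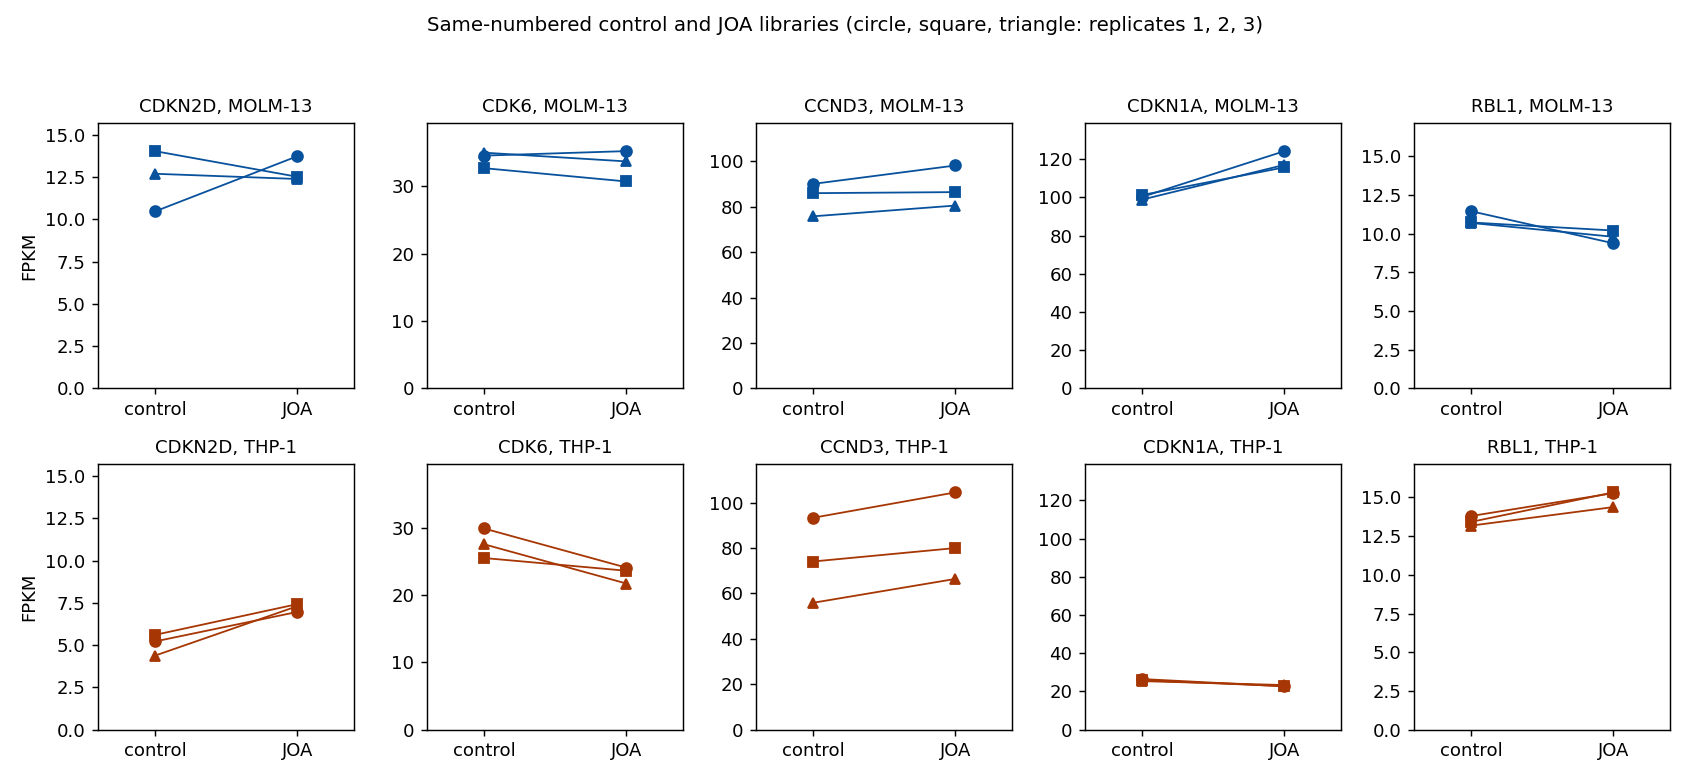
FPKM (y axis, linear, from 0) of CDKN2D, CDK6, CCND3, CDKN1A and RBL1 in control and JOA libraries (x axis), with lines joining libraries of the same replicate number, MOLM-13 above and THP-1 below. In THP-1 all 3 lines slope up for CDKN2D and down for CDK6, those of CCND3 slope up in all 6 pairs, and those of CDKN1A slope up in MOLM-13 and down in THP-1.

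MTAP works in a route that also involves the polyamine enzymes, so 10 genes of that route were read as well. After JOA 0 of 10 were called in either line, against 0% of all genes in MOLM-13 and 0.134% in THP-1. MAT2A, which makes S-adenosylmethionine, was 185 ± 3.51 FPKM in MOLM-13 controls and 173 ± 7.62 FPKM after JOA (SD, n = 3; log2 fold change -0.10, adjusted p 1, limma). SRM, the spermidine synthase gene, was 66.1 ± 7.95 and 56.9 ± 1.27 FPKM in THP-1 (-0.21, adjusted p 0.251, limma). MRI1, the next enzyme after MTAP in the salvage route, was 5.31 ± 0.0989 and 5.76 ± 0.343 FPKM there (0.11, adjusted p 0.451, limma). Between the control lines 2 of 10 were called, against 44% of all genes: MRI1 was lower in THP-1 (-1.67, adjusted p 2.58e-07, limma) and ODC1, the first polyamine enzyme, was higher (1.04, adjusted p 6.63e-05, limma). PRMT5, whose enzyme is inhibited by methylthioadenosine, had -0.28 (adjusted p 0.0224, limma), under the fold threshold.

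Of 22 neighbours listed around CDKN2A on chromosome 9, 18 were in the table. Those span 19049395 (RRAGA) to 27062930 (IFT74). After JOA 0 of 14 tested were called in MOLM-13 (0% of all genes) and 0 of 15 in THP-1 (0.134% of all genes). Between the control lines 9 of 15 were called, 6 higher and 3 lower, against 44% of all genes (25% higher, 19% lower). TUSC1 (log2 difference 3.73), DENND4C (2.38), DMRTA1, the lipid droplet gene PLIN2 (1.71), HAUS6 (0.72) and ACER2 (0.69) were higher in THP-1, with adjusted p of at most 0.00193 in limma. DMRTA1 was at 0 in MOLM-13 and KLHL9 nearly so in THP-1, so both passed the filter through 1 line. Their calls add nothing to the count of 9, and no fold is given for them. DMRTA1 was not called with a pseudocount of 1. KLHL9, IFT74 (-1.11) and CAAP1 (-0.59) were lower, with adjusted p of at most 9.68e-05 in limma. MLLT3 (-0.01), FOCAD (0.11), HACD4 (0.17), PLAA (-0.45), RRAGA (0.23) and RPS6 (-0.02) were not called, and SLC24A2, IFNE and ELAVL2 did not pass the filter.

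After JOA, KLHL9 was 4.23, 4.04 and 4.09 FPKM in MOLM-13 controls and 3.69, 3.79 and 3.89 FPKM after JOA, without overlap (-0.12, adjusted p 1, limma). RRAGA and DENND4C, on the far side of the interferon genes, were higher in all 3 THP-1 JOA libraries, with log2 fold changes of 0.33 and 0.35 and adjusted p of 0.0755 and 0.0891 in limma (0.0124 and 0.0321 with the block).

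The genes most like MTAP, CCND2 and CDKN2D over the 12 libraries were found by the root mean square difference of centred log2 values over 12625 genes. For MTAP these were ZFP57 (0.169), FUNDC1 (0.347) and ENPP2 (0.426), with mean levels of 9.56, 5.76 and 14.8 FPKM in MOLM-13 controls and 0.0159, 0.012 and 0.0377 FPKM in THP-1 controls. For CCND2 they were TSNARE1 (0.238), TNFRSF10B (0.24) and THEM6 (0.25). For CDKN2D they were DHFR2 (0.125), ZSWIM7 (0.137) and WDTC1 (0.147), and DHFR2 held a mean of 1.02 FPKM in THP-1 controls and 1.33 FPKM after JOA.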

How the data were processed

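Per the labels, libraries were made with the TruSeq Stranded mRNA kit, and the submitters' processing notes name Trimmomatic, HISAT2, Cufflinks and HTSeq and the build hg38, with no versions or roles. The authors deposited FPKM values, 1 column per library, which are not counts, so total depth is unknown and no counting interval is given. Zeros were kept as listed, and all 12 columns matched a library by name.

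Each comparison was fitted on the libraries of its groups with limma 3.58.1 (R 4.3.3) and its eBayes trend, on log2(FPKM + 0.1) for genes with a mean of at least 0.1 FPKM. Calls needed a Benjamini-Hochberg adjusted p below 0.05 and a log2 change of at least 0.58 (the interaction at the adjusted p alone). The script was tested on simulated data. Exact two-sided permutation tests used scipy 1.17.1 and Python 3.11.15. The 10 genes and the gene lists were chosen with earlier results of these data known. Of the markers of other cell types, 1 is not reported here. Other genes were named as the 2 largest changes among non-overlapping groups per list after JOA. Between lines, the 3 largest per direction of the G1/S list and every listed neighbour of CDKN2A on chromosome 9 were named. For the 3 genes that varied most, the 3 most similar genes were named. KIT, CD3D, CDK4, RBL1, ODC1, PRMT5, IFNB1, EQTN, MOB3B, C9orf72, ITGAM, CD33, CSF1R, SPI1, FLT3 and CD4, and the genes of the on and off count, fall outside this rule. They were named after their values were seen, as was the MRI1 difference between lines.

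Within a line, same-numbered control and JOA libraries deviated together (correlations of 0.407 to 0.58 in MOLM-13 and 0.297 to 0.541 in THP-1, against -0.439 to 0.0676 for other pairs). The main fits left this pairing out, so their p-values and intervals after JOA ignore it. It entered as the replicate block, which was run as an alternative. Alternatives varied the pseudocount, the filter, the scaling, the trend, the block, the libraries fitted and the fold threshold, and left out each library in turn.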

Additional observations from a re-analysis of the deposited data

Results flagged for a closer look

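For 2 of 59 listed genes tested, all JOA libraries moved one way against their controls in MOLM-13 and the opposite way in THP-1, each without overlap. Over all 12626 genes tested, 79 (0.626%) did so. CDKN1A, which encodes p21, went from 100.1 ± 1.21 to 119 ± 4.56 FPKM on average in MOLM-13 and went from 25.9 ± 0.551 to 22.9 ± 0.366 FPKM in THP-1 (SD, n = 3 each). Its interaction of line and treatment was -0.42 on the log2 scale (SE 0.06, p 1.54e-05, adjusted p 0.194, limma).

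RBL1, which encodes the retinoblastoma relative p107, went from 10.9 ± 0.433 to 9.79 ± 0.414 FPKM in MOLM-13 and from 13.5 ± 0.314 to 15.0 ± 0.529 FPKM in THP-1 (SD, n = 3 each). Its interaction was 0.31 (SE 0.08, p 0.00148, adjusted p 0.387, limma). Neither interaction passed the adjusted threshold, and since both genes were picked for moving in opposite ways, their unadjusted p-values are no independent evidence.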

How the results depend on the processing

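None of the G1 genes was called after JOA in either line under any alternative run. In control THP-1 against control MOLM-13, CCND2, CDKN2D and CDKN1B kept their calls under every alternative (as did MTAP, which the filter admits through MOLM-13 alone), and CCND1 lost its call under pseudocounts of 1 and 0.01, without the filter, under TPM scaling, between the JOA libraries and in 4 of the 6 fits without a library. CDK6 and CDKN2C passed there without the fold threshold. The 3 libraries per group and the unknown depth limit what can be seen for the low genes CCND1 and CCND2.

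The number of all genes called after JOA in THP-1 was 17. It was 8 with a pseudocount of 1, 0 without the filter, 1 without the trend, 161 with the replicate block, 51 with one fit over 12 libraries, 38 without the fold threshold, and 0 to 1 without single libraries. In MOLM-13 it was 0, and 1 without the filter. Between the lines it was 5559, and 9000 without the fold threshold. Same-numbered control libraries of both lines deviated together weakly (correlations of 0.0757 to 0.18, against -0.121 to 0.0517 for other pairs). The replicate block changed none of the 5 calls there. The interaction had 0, 1 with a pseudocount of 1, with median ratio scaling or with TPM scaling, 3 without the filter and 6 with the replicate block. CDKN1A passed the interaction without the filter (adjusted p 0.0335, limma) and with median ratio scaling (0.0455). The cause was not tested for these shifts.

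Estimates near 0 changed sign. In MOLM-13 after JOA, CDKN2C became -0.0025 under TPM scaling, and MTAP became -0.0028 under median ratio and -0.0098 under TPM scaling. In THP-1, CDKN2C became -0.0249 under median ratio scaling, and CCND1 became 0.0081 with a pseudocount of 0.01 and 0.027 under TPM scaling. Without single libraries the log2 fold changes in MOLM-13 ran from -0.1162 to 0.0082 for CDKN1B, -0.0293 to 0.0406 for CDKN2C, -0.053 to 0.1569 for CDKN2D, -0.0477 to 0.0877 for MTAP, -0.2009 to 0.1147 for CCND1, -0.2149 to 0.1512 for CCND2, -0.0048 to 0.1379 for CCND3 and -0.0824 to 0.0162 for CDK6. In THP-1 they ran from -0.0218 to 0.0668 for CDKN2C, -0.186 to 0.166 for CCND1, -0.1744 to 0.0083 for CCND2 and -0.0165 to 0.3529 for CCND3, while CDKN2D stayed between 0.4127 and 0.5875, CDK6 between -0.3116 and -0.1975 and CDKN1B between -0.2194 and -0.105. Over all alternatives the adjusted p in limma ran from 0.0162 to 0.217 for CDKN2D and from 0.0362 to 0.267 for CDK6 in THP-1. The replicate block changed no call among the G1 genes.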
